A study of Homo sapiens with 20 samples.

Results

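The nuclear-encoded respiratory chain genes are the genes in the cell nucleus that encode subunits of mitochondrial complexes I to V and cytochrome c. They were taken by symbol: NDUFA, NDUFB, NDUFC, NDUFS or NDUFV with a number, SDHA to SDHD, every symbol that starts with UQCR, COX4 to COX8 or ATP5, and CYC1 and CYCS, with no pseudogene. This gave 94 of the 45372 gene symbols that both expression tables share: 40 in complex I, 4 in complex II, 10 in complex III, 19 in complex IV, 20 in complex V and CYCS. NDUFA4 and NDUFA4L2 were placed in complex IV and CYC1 in complex III. NDUFAB1, a complex I subunit, does not meet the name patterns and was counted with the assembly factors. The name patterns also take in 7 symbols that are no subunit gene of their own. They are the readthroughs ATP5MF-PTCD1 and NDUFC2-KCTD14, the antisense or divergent transcripts NDUFA6-DT, NDUFB2-AS1 and NDUFV2-AS1, and UQCRHL and ATP5MGL, copies of UQCRH and ATP5MG. The other 87 are called subunit genes here for short. They include CYCS, the ATP synthase inhibitor ATP5IF1, and COX7A2L, which joins complexes III and IV.

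Polyadenylated RNA was sequenced with strand from HEK293T, an established line of human embryonic kidney cells with SV40 large T antigen, to describe the response to lowering HUWE1, a HECT-domain ubiquitin ligase, with small interfering RNA (siRNA). The study has 20 libraries in 5 groups of 4 biological replicates, all of them HEK293T cells given siRNA: non-targeting and HUWE1 siRNA of a first set (set 1), HUWE1 siRNA of sets 2 and 3, and non-targeting siRNA that serves as the control of both set 2 and set 3. The sources used here do not give how the sets differ, nor the siRNA sequences, the dose or the time after transfection. Values are TPM, transcript abundances scaled for length and to a fixed total per library, so they are levels relative to all other transcripts and can be compared between genes.

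The respiratory chain passes electrons from NADH through complex I and from succinate through complex II to coenzyme Q, and on through complex III, cytochrome c and complex IV to oxygen. Complexes I, III and IV pump protons out of the mitochondrial matrix, and complex V, the ATP synthase, makes ATP as the protons flow back. Complexes I, III, IV and V also hold a few subunits encoded by mitochondrial DNA, which have to be matched by the nuclear-encoded ones. Transcription factors with known sites at many of these genes include NRF1, the ETS-family factor GABP (also called NRF-2), and YY1.

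The HUWE1 transcript was 54.1%, 57.9% and 51.9% of the control mean in sets 1, 2 and 3, below every control library of its table in all 12 HUWE1 siRNA libraries (two-sided exact permutation p = 0.0286 in each set, the smallest that 4 against 4 libraries can give). Sequencing depth is unknown, since TPM keeps none. The 6 HEK293T markers looked at summed to 802 to 843 TPM in the set 1 controls, 679.6 to 718 with HUWE1 siRNA of set 1 and 916 to 1142 in the other libraries. VIM, at 472 to 913 TPM, made up most of each sum, and single markers did not all follow it. In set 3 NEFL stood at 75.8 to 81.4 TPM, under controls of 84.5 to 105.7. NEFM stood at 117 to 127 TPM, under controls of 128 to 194. The other markers overlapped their controls there, and in set 1 GATA3 and LHX1 did. Those of blood, endothelium, liver and sperm summed to at most 2.54 TPM and those of muscle to at most 5.47. The 4 fibroblast markers, of which 2 were under 1 TPM in all libraries, summed to 15.1 to 16.7 TPM in the set 1 controls and 17.4 to 18.6 with HUWE1 siRNA. The part of the markers in the results of any set was not tested. Among the shared controls of sets 2 and 3, replicates 1 and 4 stood apart: replicate 1 was the lowest of the 4 for 64 of the 86 respiratory chain genes tested and replicate 4 the highest for 53, with median deviations from the group mean of -0.13 and 0.10 on the log2 scale. Results of sets 2 and 3 are therefore also given without these libraries.

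Most subunit genes were abundant, and a handful of tissue isoforms were all but absent. In the set 1 controls 82 of the 87 subunit genes had a mean of 1 TPM or more, with a median of 95.1 TPM, and in the controls of sets 2 and 3 it was 80, with a median of 131 TPM. COX8A, a small complex IV subunit, stood at 1056 ± 44.3 TPM in the controls of the first set and 919 ± 71.5 in the others (SD, n = 4 each). ATP5F1B, the catalytic beta subunit of ATP synthase, stood at 854 and 1036 TPM, COX6A1 at 794 and 564, and the complex I subunit NDUFS5 at 627 and 926. By complex, the medians of the genes at 1 TPM or more were 83.1 TPM in complex I, 83.6 in complex II, 128 in complex III, 166 in complex IV and 108 in complex V in the set 1 controls, and complex IV also had the highest median in the second table, at 280.1 TPM. Within complex I, the control means of set 1 ran from 13.9 TPM for NDUFB5, a membrane-arm accessory subunit, to 627 TPM for NDUFS5.

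The order of the levels was much the same in both control groups, with a Spearman correlation of 0.95 across the 87 genes, which are not independent replicates. Of the 87, 70 had a higher mean in the second table than in the first. The tables were normalized separately, and mitochondrially encoded transcripts took 25.2% ± 0.692 of TPM in the set 1 controls against 17.7% ± 0.762 in those of the second table (SD, n = 4 each), so a level is compared here only within its table.

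**Figure D1:**
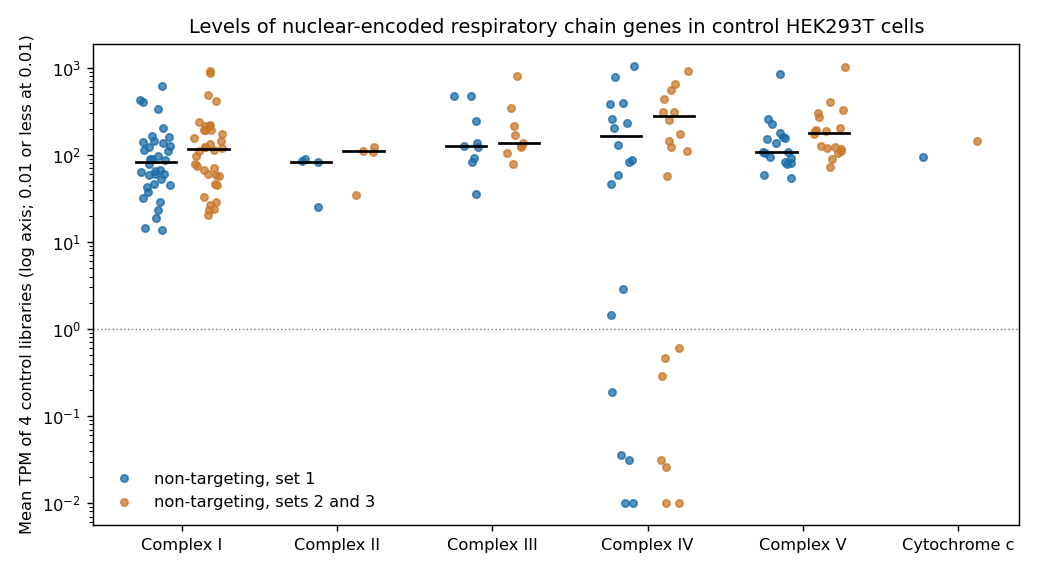
Mean TPM of each subunit gene over the 4 non-targeting libraries of set 1 (blue) and of sets 2 and 3 (orange), on a log axis, by complex; black lines are medians of the genes at 1 TPM or more and the dotted line is 1 TPM. Genes near or under 1 TPM are found in complex IV alone, while the others lie between 13.9 and 1056 TPM apart from 2 complex IV genes of set 1 between 1 and 3 TPM.

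The isoforms known from other tissues are all in complex IV, and they were low or listed at 0. COX7A1, a heart and skeletal muscle isoform, was listed at 0 in all 20 libraries, and COX6A2, another muscle isoform, was listed above 0 in 1 library, at 0.189 TPM. COX4I2, known from lung, and COX7B2 and COX8C, known from testis, had group means of at most 0.420 TPM. COX6B2, also known from testis, had 2.89 ± 0.359 TPM in the controls of set 1 and 0.467 ± 0.0829 in the second control group (SD, n = 4 each). NDUFA4L2, a relative of NDUFA4 known to respond to hypoxia, stood at 1.46 ± 0.347 and 0.603 ± 0.176 TPM.

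The members called after HUWE1 siRNA changed by small amounts, and most of them rose. A gene was tested if it had 1 TPM or more in at least 4 libraries of its table, and called if limma's Benjamini-Hochberg adjusted p over all tested genes was under 0.05. In set 1, 88 of the 94 were tested, of which 24 rose and 6 fell, against 12.3% higher and 17.9% lower among all 16057 genes tested. That is 27.3% higher and 6.82% lower for the respiratory chain genes. Among all genes with a mean of 50 TPM or more, which most of these genes reach, 16.1% were higher, 27.8% lower and 44.5% positive. The median log2 fold change, on the log2(TPM + 1) scale, was 0.04, against -0.01 over all genes, and 58 of the 88 were positive, against 46.6% of all genes. All 4 HUWE1 libraries lay above all 4 controls for 24 members and below them for 7, against 13.3% and 18.4% of all genes. Among the called members the changes ran from -0.16 to 0.25, and 2 of the 30 reached a size of 0.2. In bulk RNA, fewer cells of a type and less RNA per cell cannot be told apart.

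In set 2, 0 of 86 tested members were called by limma, against 0.0126% of all genes, which is 2 genes. At an unadjusted p under 0.05 there were 8 members of 86, against 8.83% of all genes. The fold change was positive for 68 of 86, against 48.3% of all genes, with a median of 0.04. The groups did not overlap for 0 members with higher and 1 with lower values, against 1.99% and 1.71% of all genes. Without non-targeting replicate 1 the fold change was positive for 47, with a median of 0.0049, and without replicates 1 and 4 for 66.

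In set 3, 7 of 86 rose and 1 fell, against 7.45% higher and 4.15% lower among all 15860 genes. The 8.14% of members called higher is near that background. The fold change was positive for 69 of 86, against 51.5% of all genes, and the median was 0.10, against 0.01 over all genes. At an unadjusted p under 0.05 there were 32, against 34.5% of all genes, and the groups did not overlap for 15 with higher and 2 with lower values, against 11.2% and 6.03%. Among all genes with a mean of 50 TPM or more, 9.36% were higher, 5.76% lower and 54.8% positive. These counts rest on few libraries: 41 were called without non-targeting replicate 4, 19 without replicates 1 and 4, 2 without replicate 1 and 0 without replicate 3. None was called when HUWE1 replicate 3 or replicate 4 of set 3 was left out, or when only the 2 groups compared were fitted. Mitochondrially encoded transcripts took 15.9% ± 0.372 of TPM in set 3, below its controls (SD, n = 4). With TPM recomputed without them, 59 of 86 fold changes were positive, with a median of 0.06 (-0.02 over all genes), and 3 members were called.

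Set 3 against set 2 gave 0 members called of 86 by limma, against 0.517% of all genes. At an unadjusted p under 0.05 there were 9, against 15.8% of all genes. The difference was positive for 65 of 86, against 53.0% of all genes. Sets 2 and 3 share their controls, so their fold changes are not independent of each other. Across the 80 subunit genes tested in both tables, the Spearman correlation of the fold changes was 0.33 between sets 1 and 3, against 0.39 across all genes, and 0.30 between sets 1 and 2, against 0.33.

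**Figure D2:**
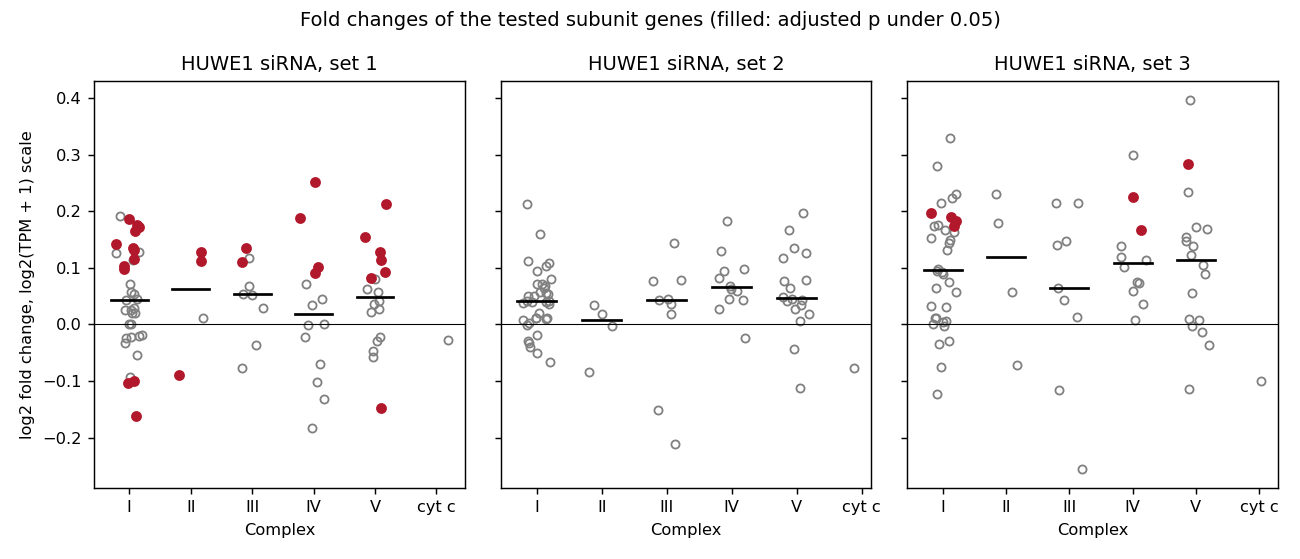
Log2 fold change of every tested subunit gene, HUWE1 siRNA against the non-targeting libraries of the same table, by complex, in sets 1, 2 and 3; filled red points have an adjusted p under 0.05, open points do not, and black lines are medians. In set 1, 24 filled points lie above 0 and 5 below; set 2 has none, and set 3 has 7 above 0.

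The members called in both sets 1 and 3, which have no library in common, were COX5B, NDUFA13, NDUFB11 and NDUFB2, all higher, and ATP5MF-PTCD1, lower. They are 16.7% of the 24 higher members of set 1 and 57.1% of the 7 of set 3. Among all genes tested in both tables, 378 were higher in both, which is 19.3% of set 1's and 32.5% of set 3's. No member was called in opposite directions. For these 4 subunit genes the sequence around the RefSeq start is shown first, as the stretch where a shared promoter motif would lie: 250 bases before the start and 10 after it, 5′ to 3′ on the gene's strand (RefSeq, GRCh38.p14), with matches to the ETS core CCGGAAG, on either strand, in capitals.
COX5B (chr2:97645812-97646071, plus strand): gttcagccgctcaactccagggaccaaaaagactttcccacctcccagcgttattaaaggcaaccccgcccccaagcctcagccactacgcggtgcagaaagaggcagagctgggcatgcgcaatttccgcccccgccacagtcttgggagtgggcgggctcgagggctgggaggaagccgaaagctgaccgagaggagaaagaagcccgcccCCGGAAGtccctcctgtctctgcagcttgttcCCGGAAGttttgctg
NDUFA13 (chr19:19515975-19516234, plus strand): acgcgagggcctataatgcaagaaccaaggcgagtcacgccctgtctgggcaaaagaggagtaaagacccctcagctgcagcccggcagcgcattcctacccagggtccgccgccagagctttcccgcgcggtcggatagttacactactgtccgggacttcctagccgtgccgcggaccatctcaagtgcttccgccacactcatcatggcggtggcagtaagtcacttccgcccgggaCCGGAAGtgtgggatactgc
NDUFB11 (chrX:47144693-47144952, minus strand): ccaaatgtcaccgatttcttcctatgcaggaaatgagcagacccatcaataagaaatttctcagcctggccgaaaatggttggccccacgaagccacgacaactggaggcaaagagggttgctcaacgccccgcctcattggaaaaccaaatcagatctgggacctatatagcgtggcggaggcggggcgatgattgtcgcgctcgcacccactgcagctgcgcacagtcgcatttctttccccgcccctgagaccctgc
NDUFB2 (chr7:140696458-140696717, plus strand): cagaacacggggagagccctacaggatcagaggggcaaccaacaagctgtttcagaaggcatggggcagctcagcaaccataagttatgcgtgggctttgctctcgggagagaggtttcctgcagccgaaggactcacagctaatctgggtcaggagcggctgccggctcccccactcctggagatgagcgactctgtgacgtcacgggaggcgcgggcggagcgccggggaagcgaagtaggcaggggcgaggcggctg

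The COX5B window holds 2 such matches and the NDUFA13 window 1, while those of NDUFB11 and NDUFB2 hold 0. None of the 4 holds a match to the NRF1 motif or to the YY1 core (AAGATGGC). As exact letters, none of the 3 motifs is therefore shared by all 4, and inexact sites were not searched. The window of NDUFB2 lies inside the span of NDUFB2-AS1, which is transcribed from the other strand (GRCh38, chromosome 7, 140695336 to 140697077).

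As a group, the respiratory chain promoters held these motifs more often than promoters at large. RefSeq gave a sequence of 300 bases, from 250 before to 50 after the start, for 72 of the 87 subunit genes. A match to the ETS core was present in 20 of the 72, which is 27.8%, against 10.2% of 34796 promoters of the same length. The 34796 were not limited to the genes tested, so the excess is not shown to be particular to respiratory chain genes. The NRF1 motif was present in 10 (13.9%, against 2.76%) and the YY1 core in 11 (15.3%, against 2.89%). NRF1 and YY1 matches were found in 0 of the 16 complex IV promoters, where 5 held the ETS core. With 16 promoters, these counts are too small to set against the shares of the 72. The 16 include isoforms that were all but absent here, such as COX6A2, COX7B2 and COX8C. A GC box (GGGCGG) was in 58.3%, against 44.9%, the letters CCAAT in 36.1%, against 34.6%, and TATAAA in 9.72%, against 11.6%. Motifs were searched on both strands as exact letters, and the NRF1 motif as its palindromic core with either pyrimidine in the middle. A match is a description of the letters only. The median log2 fold change in set 1 was 0.05 for tested genes with the ETS core and 0.02 without it, 0.04 and 0.03 with and without the NRF1 motif, and 0.02 and 0.04 with and without the YY1 core. In set 3 it was 0.10 and 0.08 for the ETS core, 0.06 and 0.09 for NRF1, and 0.15 and 0.08 for YY1, whose order was the opposite of that in set 1.

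COX5B, a structural subunit of complex IV (GRCh38, chromosome 2, 97646040 to 97648383, plus strand), stood at 225, 234, 225 and 239 TPM in the 4 controls of set 1 and at 247, 271, 267 and 265 with HUWE1 siRNA. All 4 HUWE1 libraries lay above every control. It rose by 0.19 ± 0.033 on the log2 scale (SE; limma adjusted p = 0.00268). In the second table it stood at 288, 320.1, 310.3 and 317 TPM in the controls, 311, 336, 329 and 341 in set 2 and 348, 357, 330.0 and 351 in set 3. Set 2 overlapped the controls, with a fold change of 0.09 ± 0.045 (SE; limma adjusted p = 0.569), and set 3 lay above them, with a rise of 0.17 ± 0.045 (limma adjusted p = 0.038).

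NDUFA13, a membrane-arm accessory subunit of complex I also known as GRIM-19 (GRCh38, chromosome 19, 19515736 to 19529054, plus strand), stood at 140.1, 135, 141 and 145 TPM in the controls of set 1 and 156, 170.0, 157 and 155 with HUWE1 siRNA, with no overlap. It rose by 0.19 ± 0.034 (SE; limma adjusted p = 0.00334). The controls of sets 2 and 3 had 180.4, 202, 191 and 196 TPM, set 2 189, 218, 201 and 205 and set 3 215, 227, 212 and 213. Set 3 lay above the controls, with a rise of 0.17 ± 0.049 (limma adjusted p = 0.0421), while set 2 overlapped them (0.08 ± 0.049, limma adjusted p = 0.618).

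NDUFB11 and NDUFB2, also accessory subunits of the complex I membrane arm, also rose in both. NDUFB11 (GRCh38, chromosome X, 47142216 to 47145504, minus strand) stood at 202, 197, 204 and 218 TPM in the controls of set 1 and 226, 242, 225 and 236 with HUWE1 siRNA, a rise of 0.18 ± 0.036 (SE; limma adjusted p = 0.0056). In set 3 it stood at 244, 249.7, 261 and 248 TPM, above controls of 198, 231, 212 and 240.4, a rise of 0.19 ± 0.054 (limma adjusted p = 0.0421). The 4 values of set 2, from 226 to 232 TPM, lay within the range of the controls. NDUFB2 (GRCh38, chromosome 7, 140690777 to 140722790, plus strand) rose from 44.3, 45.1, 43.3 and 46.5 to 48.5, 47.0, 48.5 and 50.6 TPM in set 1, by 0.12 ± 0.032 (SE; limma adjusted p = 0.0217). In set 3 it stood at 49.8, 50.4, 50.5 and 53.3 TPM over controls of 42.4, 46.0, 42.7 and 48.5, a rise of 0.18 ± 0.05 (limma adjusted p = 0.0392), and the groups did not overlap.

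ATP5MF-PTCD1, a readthrough of the ATP synthase f subunit gene ATP5MF into its neighbour PTCD1 (GRCh38, chromosome 7, 99419749 to 99466197, minus strand), went the other way. It stood at 40.8, 37.8, 39.2 and 40.1 TPM in the controls of set 1 and 32.6, 37.7, 34.8 and 36.2 with HUWE1 siRNA, and fell by 0.16 ± 0.044 on the log2 scale (SE; limma adjusted p = 0.0238). In the second table it had 36.3, 30.3, 29.9 and 26.7 TPM in the controls, 23.9, 24.4, 27.9 and 27.5 in set 2 and 23.7, 24.6, 21.4 and 21.4 in set 3. Set 3 lay under every control and fell by 0.41 ± 0.086 (limma adjusted p = 0.0192), and set 2 gave -0.23 ± 0.086 (limma adjusted p = 0.492). ATP5MF itself rose by 0.08 in set 1 (limma adjusted p = 0.038) and had a fold change of 0.14 in set 3 (limma adjusted p = 0.134). The 2 symbols share exons, and how the authors' counting split their reads is not given, so both values are uncertain.

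**Figure D3:**
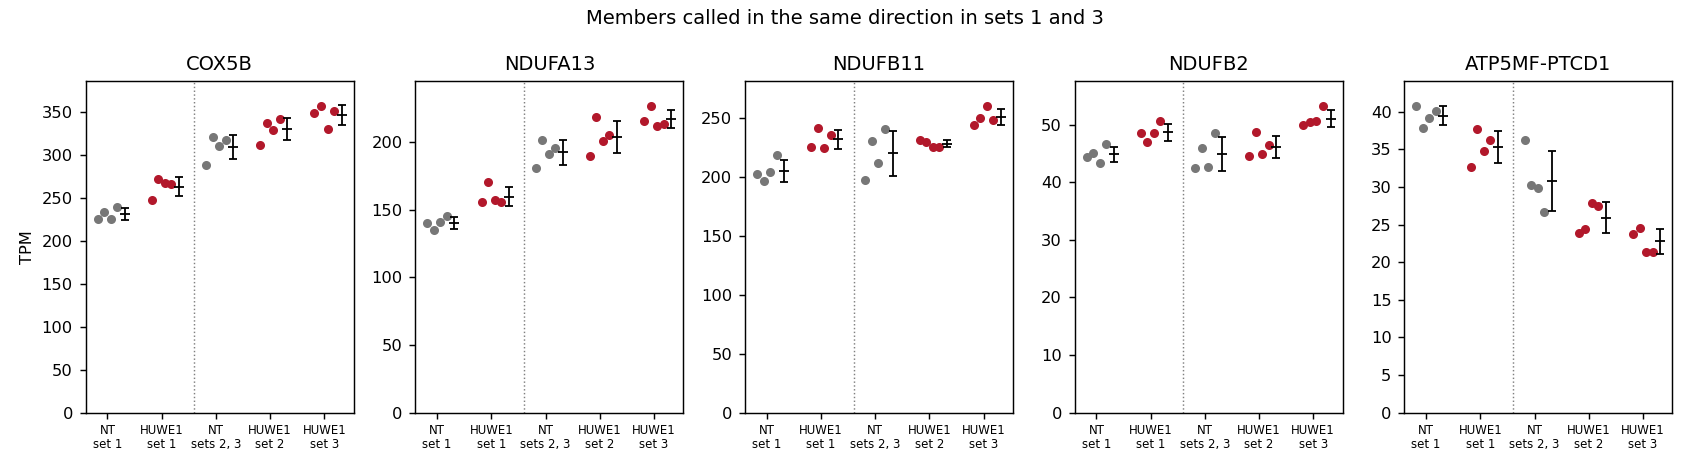
TPM in every library (points, from 0) of the 5 members called in the same direction in sets 1 and 3, with the mean and SD of each group of 4 beside them; the dotted line parts the 2 tables, which were normalized separately. In set 1 and set 3 the HUWE1 libraries of COX5B, NDUFA13, NDUFB11 and NDUFB2 lie above all controls, those of ATP5MF-PTCD1 lie below, and set 2 overlaps the controls for all 5.

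Under other settings the set 3 calls of these 5 were often lost. Of 23 alternative settings, COX5B lost its set 3 call in 15, NDUFA13 in 16, NDUFB11 in 17, NDUFB2 in 14 and ATP5MF-PTCD1 in 4, with 0 changes of direction. In set 1, COX5B, NDUFA13 and NDUFB11 were called under all 17 alternatives, NDUFB2 lost its call in 3 and ATP5MF-PTCD1 in 5.

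Complex I, which oxidizes NADH, had 10 of 40 members higher and 3 lower in set 1, which is 25.0% and 7.50%, against 12.3% and 17.9% of all genes. In set 3, 4 were higher and 0 lower, and the 10% higher is near the 7.45% of all genes. Most complex I subunit genes encode accessory subunits, which surround the catalytic core. In set 1, 9 of these 29 rose and 3 fell, while 1 of the 7 nuclear-encoded core subunits, NDUFS7, rose (0.13). That is 31.0% and 14.3% higher, against 12.3% of all genes. In set 3 the core genes had the larger median fold change, 0.16 against 0.09, with 0 of 7 and 4 of 29 called higher. Whether core and accessory subunits differ was not tested. Besides the 3 above, NDUFS6, a zinc-binding subunit, was called in set 1. It stood at 93.4, 82.7, 87.4 and 94.6 TPM in the controls and 97.2, 101, 105 and 101 with HUWE1 siRNA. The groups did not overlap, and it rose by 0.17 ± 0.043 (SE; limma adjusted p = 0.014). In set 3 its fold change was 0.01 (limma adjusted p = 0.882).

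NDUFA1, one of the most abundant complex I transcripts, rose by 0.17 in set 1, from 408 ± 25.4 to 457 ± 15.5 TPM (SD, n = 4; limma adjusted p = 0.0183), and NDUFS4, needed for a stable complex, by 0.14. NDUFA10, NDUFB9 and NDUFC1 were also higher, by 0.10 to 0.13. NDUFS5 and NDUFB7, with the highest levels of complex I in the set 1 controls, had -0.09 and 0.06 and were not called. NDUFS4 was among the 8 members under 0.05 before adjustment in set 2, where the fold change was 0.21 ± 0.09 (SE; limma adjusted p = 0.525). Its 4 controls spread from 79.2 TPM in replicate 1 to 114 in replicate 4, and the set 2 libraries, from 111 to 114 TPM, overlapped them.

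The 3 complex I members that fell in set 1 were NDUFA12, NDUFA6 and NDUFC2. NDUFC2, a membrane-arm accessory subunit, had 109.7, 109.8, 112 and 111 TPM in the controls and 105, 102, 104 and 102 with HUWE1 siRNA. All 4 lay below every control, and it fell by 0.10 ± 0.021 (SE; limma adjusted p = 0.00646). NDUFA6 fell by 0.10 and NDUFA12 by 0.16 (limma adjusted p = 0.0164 and 0.0458). The NDUFA12 groups overlapped, and its call was lost in 11 of 17 alternatives. In set 3 these 3 had fold changes of 0.06, 0.0003 and 0.0064, with limma adjusted p from 0.323 to 0.997. NDUFC2 shares exons with the readthrough NDUFC2-KCTD14, whose 6.05, 1.94, 10.2 and 10.5 TPM in the set 1 HUWE1 libraries varied widely, so its value depends on how reads were split. NDUFB3, another membrane-arm subunit, rose in set 3, from 194 ± 14.4 to 223 ± 5.51 TPM (SD, n = 4; 0.20, limma adjusted p = 0.0367; lost in 12 of 23 alternatives), with 0.0010 in set 1 and 0.04 in set 2. The difference between sets 3 and 2 was 0.15 (limma adjusted p = 0.191).

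The noncoding symbols of complex I were low and uncalled in every set. NDUFA6-DT, which starts next to NDUFA6 and runs the other way, stood at 8.28 ± 0.281 TPM in the set 1 controls, and NDUFB2-AS1 and NDUFV2-AS1 at 1.74 ± 0.284 and 1.05 ± 0.252 (SD, n = 4 each). The library kit marks strand, but whether the counting used it is not given, so reads of these and of the overlapping gene may not be fully parted.

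Complex II, succinate dehydrogenase, is the one complex encoded in the nucleus alone. In set 1, 2 of its 4 genes were called higher and 1 lower. With 4 genes, these counts are too small to set against the 12.3% higher and 17.9% lower of all genes. SDHA, the flavoprotein that oxidizes succinate, had 94.0, 90.4, 89.9 and 88.8 TPM in the controls and 84.5, 85.5, 86.3 and 84.8 with HUWE1 siRNA, and fell by 0.09 ± 0.024 (SE; limma adjusted p = 0.0205). SDHB, the iron-sulfur subunit, had 83.8, 79.0, 82.9 and 83.9 and 86.8, 88.0, 91.9 and 89.6 TPM, and rose by 0.11 ± 0.029 (SE; limma adjusted p = 0.0157). SDHC, a membrane anchor, rose by 0.13 (limma adjusted p = 0.0195), and the other anchor, SDHD, had 0.01 (limma adjusted p = 0.752). For each of SDHA, SDHB and SDHC the 2 groups did not overlap, against 13.3% of all genes with higher and 18.4% with lower values. The SDHA and SDHC calls were each lost in 3 of 17 alternatives. In set 3, 0 of 4 were called, against 7.45% higher and 4.15% lower among all genes. SDHA stood at -0.07 there and SDHB and SDHC at 0.23 and 0.18 (limma adjusted p = 0.0829 and 0.0907 for SDHB and SDHC). In set 2 SDHA stood at -0.08 (limma adjusted p = 0.542), SDHB at 0.03 and SDHC at -0.0036. SDHB and SDHC were among the 9 members under 0.05 before adjustment in set 3 against set 2, with differences of 0.20 and 0.18 (limma adjusted p = 0.29 and 0.225).

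Complex III, which passes electrons from coenzyme Q to cytochrome c, had 2 of 10 members higher and 0 lower in set 1, a count too small to set against the 12.3% of all genes called higher. UQCRC1, a core protein on the matrix side, had 130.1, 126, 128 and 127 TPM in the controls and 135, 144, 140.0 and 144 with HUWE1 siRNA, with no overlap, and rose by 0.14 ± 0.026 (SE; limma adjusted p = 0.00406). CYC1, the cytochrome c1 subunit that hands electrons to cytochrome c, had 236, 254, 245 and 246 and 259, 269.9, 256 and 274 TPM, and rose by 0.11 ± 0.031 (limma adjusted p = 0.0225); this call was lost in 5 of 17 alternatives. The most abundant complex III transcripts, UQCRH and UQCR10, were not called, with 0.05 and -0.08.

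In sets 2 and 3, 0 of the 10 complex III members were called. Among all genes, 0.0126% were called in set 2, and 7.45% were higher and 4.15% lower in set 3. UQCR10, a small subunit, had the smallest unadjusted p of all members in set 2 and a negative fold change: 401, 339, 325 and 328 TPM in the controls and 281, 309, 285 and 324 in set 2, -0.21 ± 0.07 on the log2 scale (SE; limma adjusted p = 0.492). It was the one member of set 2 whose groups did not overlap, against 1.71% of all genes with lower values and no overlap. UQCRHL, a copy of UQCRH, stood at 1.63 ± 0.268 TPM in the set 1 controls against 473 for UQCRH, and reads of the near-identical copies cannot be parted with certainty.

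Cytochrome c itself, CYCS, was not called in any set. It had 83.5, 91.5, 104 and 100.2 TPM in the controls and 96.8, 86.7, 93.2 and 94.7 with HUWE1 siRNA in set 1, and the groups overlapped throughout. The fold changes were -0.03 ± 0.064, -0.08 ± 0.069 and -0.10 ± 0.069 in sets 1, 2 and 3 (SE; limma adjusted p = 0.781, 0.708 and 0.314). The controls of the second table had 162, 137, 147 and 129 TPM, so that replicate 1 was the highest and replicate 4 the lowest, the reverse of their place for most members.

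Complex IV, cytochrome c oxidase, had 4 of 14 tested members higher and 0 lower in set 1 (28.6% higher, against 12.3% of all genes). COX6C had the largest increase of all members in this set: 59.1, 55.0, 59.0 and 60.1 TPM in the controls and 68.9, 66.7, 70.7 and 72.2 with HUWE1 siRNA, 119% of the control mean. The lowest HUWE1 library lay above the highest control, and it rose by 0.25 ± 0.035 (SE; limma adjusted p = 8.37e-04). In the second table the controls spread from 84.6 TPM in replicate 1 to 128 in replicate 4. There its fold change was 0.18 ± 0.1 in set 2 and 0.30 ± 0.1 in set 3 (limma adjusted p = 0.602 and 0.065), and it fell short of a call in both.

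COX4I1, the main isoform of the subunit that binds ATP as a regulator, had 126, 128, 129 and 131 TPM in the set 1 controls and 137, 139.5, 134 and 141 with HUWE1 siRNA. It rose by 0.10 ± 0.024 (SE; limma adjusted p = 0.0105), and COX7C rose by 0.09 (limma adjusted p = 0.0244), with no overlap for either. COX8A and COX6A1, the most abundant complex IV transcripts of the set 1 controls, had -0.02 and 0.04 and were not called.

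In set 3, 12 of 12 tested complex IV members had a positive fold change, against 51.5% of all genes. COX5B and COX7A2L were called, and these 16.7% higher stand against 7.45% of all genes. COX7A2L, which joins complexes III and IV into supercomplexes, had 52.5, 56.2, 59.1 and 60.4 TPM in the controls and 63.5, 64.2, 72.8 and 66.8 in set 3, with no overlap. It rose by 0.22 ± 0.055 (SE; limma adjusted p = 0.0301; lost in 7 of 23 alternatives), whereas set 1 gave 0.0013 (limma adjusted p = 0.981) and set 2 0.07. In set 2, 11 of 12 were positive, against 48.3% of all genes. Both counts of positive values rest on the same controls, whose replicate 1 was the lowest for most members.

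Complex V, the ATP synthase, had 6 of 19 tested members higher and 2 lower in set 1, which is 31.6% and 10.5%, against 12.3% and 17.9% of all genes. Of the 5 subunits of the catalytic F1 head, ATP5F1A, ATP5F1B and ATP5F1D rose, while ATP5F1C (gamma) and ATP5F1E (epsilon) were not called, with 0.06 and 0.06 (limma adjusted p = 0.182 and 0.146). ATP5F1B, the beta subunit that makes ATP, had 855, 826, 867 and 869 TPM in the controls and 916, 938, 966 and 983 with HUWE1 siRNA. All 4 lay above every control, and it rose by 0.15 ± 0.028 (SE; limma adjusted p = 0.00327), the largest gain in TPM of the called members. ATP5F1D, the delta subunit, had 54.5, 54.4, 53.0 and 55.8 and 58.0, 66.5, 62.2 and 66.6 TPM, and rose by 0.21 ± 0.043 (limma adjusted p = 0.00521). ATP5F1A, the alpha subunit, rose by 0.09 (limma adjusted p = 0.04). In the membrane part ATP5ME, the e subunit, rose from 258, 265, 261 and 251 to 289, 273, 274 and 294 TPM (0.13, limma adjusted p = 0.0111).

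The genes for the c subunit, whose ring turns as protons pass, parted in set 1. ATP5MC1, ATP5MC2 and ATP5MC3 encode the same mature protein. ATP5MC1 had 104, 114, 108 and 101 TPM in the controls and 98.6, 94.4, 94.1 and 97.8 with HUWE1 siRNA, all below every control, and fell by 0.15 ± 0.037 (SE; limma adjusted p = 0.0137). ATP5MC2, with more than double its TPM, rose from 228 ± 6.27 to 247 ± 9.15 TPM (SD, n = 4; 0.11, limma adjusted p = 0.0209), and ATP5MC3 had 0.04 (limma adjusted p = 0.438). ATP5MC1 also had negative values in sets 2 and 3, -0.11 ± 0.048 and -0.11 ± 0.048 (SE; limma adjusted p = 0.537 and 0.118), against the same controls.

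In set 3 complex V had 1 subunit gene called, higher, and the readthrough ATP5MF-PTCD1, lower. Each is 5.26% of the 19 tested members, near the 7.45% higher and 4.15% lower of all genes. ATP5PD, the d subunit of the stalk, had 104, 133, 128 and 143 TPM in the controls, 139, 142, 142 and 143 in set 2 and 149.6, 152, 160.0 and 153 in set 3. Replicate 1 was the lowest control by far. It rose in set 3 by 0.28 ± 0.076 (SE; limma adjusted p = 0.0371; lost in 12 of 23 alternatives), with 0.17 ± 0.076 in set 2 (limma adjusted p = 0.557) and 0.08 ± 0.032 in set 1 (limma adjusted p = 0.0867). ATP5F1C stood at 392 ± 32.4 TPM in set 3 over controls of 302 ± 66.2 (SD, n = 4), and was not called (limma adjusted p = 0.055). ATP5IF1, the inhibitor of ATP hydrolysis by the enzyme, was not called in any set, with -0.06, 0.04 and -0.0020. ATP5MGL, a copy of ATP5MG, had group means of at most 0.168 TPM and was not tested.

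In set 1 the summed level of the subunit genes was slightly higher with HUWE1 siRNA. The 87 subunit genes summed to 13221, 13296, 13320.3 and 13295 TPM in the set 1 controls and to 13566, 13682, 13597 and 13822 with HUWE1 siRNA, or 13283 ± 42.8 and 13667 ± 114 (SD, n = 4 each). The sums did not overlap in set 1, and the same held for complex I (4402 ± 25.7 and 4517 ± 36.7 TPM), complex III (1787 ± 15.3 and 1823 ± 13.3) and complex V (2986 ± 27.6 and 3145 ± 52.4). Those of complexes II and IV overlapped. In the second table the controls ran from 15733 to 18172 TPM, set 2 from 17042 to 18485 and set 3 from 17678 to 18301, all overlapping, with control replicate 1 lowest of the 12 libraries. In set 3 the sums for complex I ran from 6388 to 6672 TPM over controls of 5645 to 6608. They were 401 ± 9.98 over 377 ± 28.0 TPM for complex II (SD, n = 4) and 2150.4 ± 41.8 over 2115 ± 75.0 for complex III. For complex IV they were 4282 ± 74.7 over 4046 ± 271, and for complex V 4517 ± 76.2 over 4154 ± 319.5. Each of these overlapped its controls. These sums rest on the same values as the single genes and are given as a description.

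**Figure D4:**
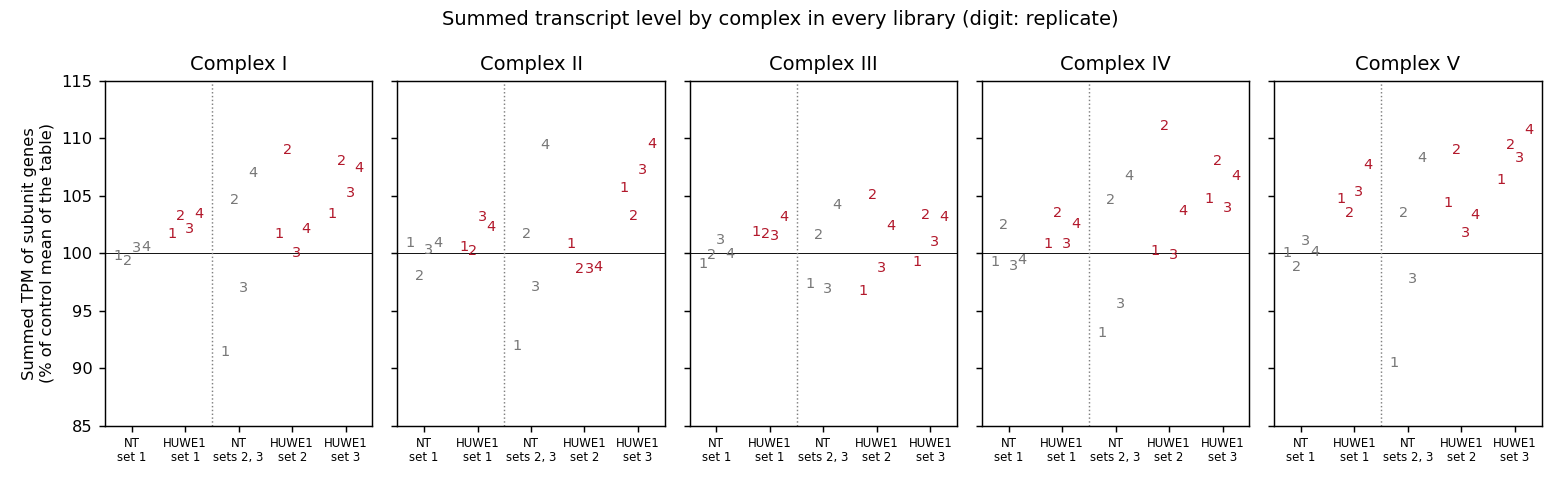
Summed TPM of the subunit genes of each complex in every library, as a percentage of the control mean of the same table; grey digits are non-targeting libraries, red digits HUWE1 siRNA libraries, and the digit is the replicate number. In set 1 complexes I, III and V lie above all controls, whereas in sets 2 and 3 the controls spread from replicate 1 at the bottom to replicate 4 at the top for most complexes.

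Assembly factors, taken here as proteins that help make the complexes, had more calls lower than higher in set 1, as did all genes. Most do not stay in the complexes, but the list also holds NDUFAB1, a complex I subunit. Of 55 looked at, 5 rose and 16 fell, or 9 and 12 with median-of-ratios scaling. That is 9.09% higher and 29.1% lower, against 12.3% and 17.9% of all genes. Their median log2 fold change was -0.06, against 0.04 for the subunit genes and -0.01 for all genes. Those that fell were led by NDUFAF4, a complex I factor (72.5 ± 2.40 to 57.0 ± 2.42 TPM, SD, n = 4; -0.34), COA7, a complex IV factor (-0.29), and NDUFAF6 (-0.29), with limma adjusted p from 2.34e-04 to 6.66e-04. Across 17 alternatives 15 to 26 were called. In set 3, FMC1, which acts in ATP synthase assembly, rose by 0.45, the copper chaperone gene COX17 by 0.28 and SURF1 by 0.22, and COA4 fell by 0.35 (limma adjusted p from 0.00594 to 0.0494). The 5.45% higher and 1.82% lower stand against 7.45% and 4.15% of all genes. Across 23 alternatives 1 to 29 were called there, the 29 without non-targeting replicate 4. In set 2, 0 of 55 were called by limma, and 2 had an unadjusted p under 0.05 (3.64%, against 8.83% of all genes).

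The 13 subunits encoded by mitochondrial DNA had 1 call in set 1 and were mostly lower in set 3. Their set 1 fold changes ran from -0.20 to 0.10, with a median of 0.04. In set 1 MT-ATP6, a complex V subunit, rose by 0.09 (limma adjusted p = 0.0416), and 10 of 13 were positive, against 46.6% of all genes. The 7.69% called higher stands against 12.3% of all genes. Across 16 alternatives 0 to 2 were called. In set 3, 4 of 13 fell: MT-ND2 by 0.37, MT-ND4L by 0.30, MT-ATP6 by 0.26 and MT-CO3 by 0.18 (limma adjusted p from 0.0244 to 0.0469). That is 30.8% lower, against 4.15% of all genes. In set 2, 13 of 13 were negative, with a median of -0.09 and 0 called by limma, also at an unadjusted p under 0.05. Among all genes of set 2, 48.3% were positive and 8.83% had an unadjusted p under 0.05. In set 3 12 of 13 were negative, with a median of -0.21, while 51.5% of all genes and 69 of 86 nuclear-encoded members were positive. TPM has a fixed total, so a lower mitochondrial share raises the other values, and the opposite directions are not independent. Recomputing TPM without the mitochondrially encoded transcripts scales all other genes of a library by the same factor. It lowers their set 3 fold changes about alike, so fewer positive members, as given above, were fixed in advance. The part of the mitochondrial share in the set 3 values was not tested. Across 22 alternatives 0 to 8 were called in set 3, with 8 without non-targeting replicate 4 and 0 without replicate 2 or 3. MT-ND4L overlaps MT-ND4, so its value depends on how reads were split.

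Of 16 regulators of these genes, 1 rose and 2 fell in set 1 and 1 rose and 4 fell in set 3. The shares were 6.25% higher and 12.5% lower in set 1, both below the 12.3% and 17.9% of all genes, and 6.25% and 25.0% in set 3, against 7.45% and 4.15%. PPRC1, a coactivator of the PGC-1 family that works with NRF1, fell in both, from 161 ± 2.28 to 134 ± 2.26 TPM in set 1 (-0.27, limma adjusted p = 7.70e-05) and from 98.0 ± 17.7 to 70.6 ± 5.72 in set 3 (-0.45, limma adjusted p = 0.0293; SD, n = 4 each). HCFC1, a chromatin cofactor that binds PGC-1 family proteins, fell by 0.21 and 0.35. ESRRA, an orphan nuclear receptor that drives respiratory genes, rose by 0.31 in set 1 (limma adjusted p = 0.00913). In set 3 PPARGC1B, another PGC-1 family gene, fell by 0.47, POLRMT, the mitochondrial RNA polymerase, by 0.16, and GABPB2, which encodes a subunit of GABP, rose by 0.21 (limma adjusted p from 0.0355 to 0.0462). With the replicate block 0 of 16 were called in set 3, and leaving out single libraries gave 0 to 10; the 10 were without non-targeting replicate 4. In set 2 limma called 0 of 16, and 2 had an unadjusted p under 0.05 (12.5%, against 8.83% of all genes).

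Of 21 genes of the citric acid cycle and other electron donors, 3 rose and 4 fell in set 1, or 4 and 3 with median-of-ratios scaling, and 1 rose and 1 fell in set 3. The 14.3% higher and 19.0% lower of set 1 are near the 12.3% and 17.9% of all genes, and the 4.76% each way of set 3 is near the 7.45% and 4.15%. OGDH, the first subunit of the oxoglutarate dehydrogenase complex, fell in both, from 70.0 ± 1.64 to 59.4 ± 2.32 TPM in set 1 (-0.23, limma adjusted p = 8.27e-04) and from 69.2 ± 7.06 to 44.1 ± 2.51 in set 3 (-0.64, limma adjusted p = 0.00136; SD, n = 4 each). It was also lower in set 3 than in set 2, by 0.47 ± 0.072 (SE; limma adjusted p = 0.0158). The citrate synthase gene CS fell by 0.13 and DHODH, which feeds electrons from pyrimidine synthesis to coenzyme Q, by 0.21 in set 1. In set 3 GPD2, the mitochondrial glycerol phosphate dehydrogenase, rose by 0.35 (limma adjusted p = 0.0472), and 16 of 23 alternatives left 0 genes of this list higher.

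**Figure D5:**
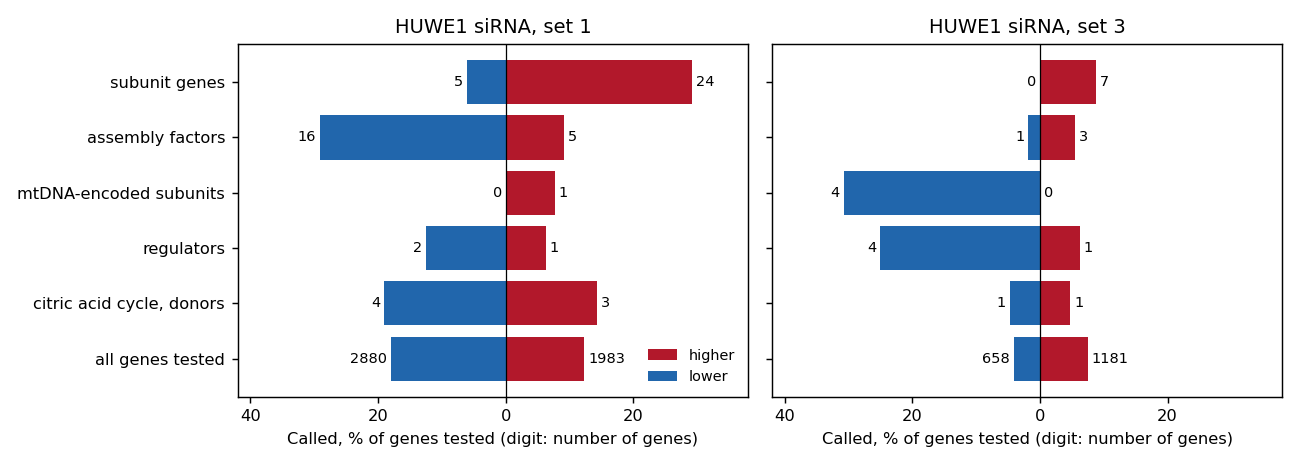
Share of tested genes called higher (red, to the right) and lower (blue, to the left) in sets 1 and 3 for the subunit genes, 4 lists of related genes and all genes tested; digits are numbers of genes. In set 1 the subunit genes have 24 higher and 5 lower, the assembly factors 5 and 16, and all genes 1983 and 2880.

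The subunit genes had short lengths in GENCODE, with a median of 635 bases, against 1035 for the other tested genes of set 1. Length here is the median over a gene's annotated transcripts, not the length of its main mRNA. HUWE1, for example, is listed at 800 bases, so the match by length below is rough. Among the 7236 other genes with lengths between the members' 10th and 90th percentiles, 49.3% had a positive fold change in set 1, against 69.5% of the subunit genes, with medians of -0.0027 and 0.04. In sets 2 and 3 it was 52.8% and 56.2% of 7219 such genes, against 81.2% and 83.7% of the subunit genes. Across the 80 subunit genes of set 3, the fold change had a Spearman correlation of -0.34 with GC content, against -0.16 across all genes, and in set 1 it was 0.08, against -0.01. Genes are not independent replicates, and the part of GC content in the results was not tested.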

How the data were processed

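The authors deposited TPM values in 2 tables, with set 1 in the first (8 libraries) and sets 2 and 3 in the second (12 libraries). The submitters' processing notes name hg38; the sources used here name no aligner, counter or annotation. Depth is unknown. Per the labels' protocols, RNA was taken up in Trizol and libraries were made with a TruSeq stranded mRNA kit.

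Genes that reached 1 TPM in 4 or more of a table's libraries were tested on log2(TPM + 1) with limma 3.58.1 in R 4.3.3, with a variance trend and Benjamini-Hochberg adjustment over all tested genes. Set 1 was fitted on 8 libraries. Sets 2 and 3 and their difference came from 1 fit of 12. Fold changes on this scale understate the change of low genes. The procedure was tested on simulated data in which each gene varied independently. Shifts shared by many genes, as in control replicates 1 and 4 of sets 2 and 3, were not simulated. The simulation therefore cannot show how stable the set 3 calls are. Named genes were, for each set and complex, up to 3 called members in each direction, the 2 highest by TPM, those called in sets 1 and 3, the 3 smallest p where none was called, isoforms and other symbols by level, and up to 3 genes per related list. NDUFA10, NDUFB5, NDUFB9, NDUFC1, NDUFS7, ATP5F1A, ATP5F1C, ATP5F1E, ATP5MC2, ATP5MC3, ATP5MF, ATP5IF1, COA4, MT-ND4L, POLRMT and GABPB2 were added after their values were seen. The members, the lists and the tests were chosen with earlier results of these data known. Motifs were matched as exact letters in RefSeq promoters (GRCh38.p14), and gene positions come from GENCODE 29 (GRCh38). Alternatives were another pseudocount, filters, scalings and variance settings, a block for the replicate number, fits of 2 groups alone, and leaving out each library. The fit without non-targeting replicates 1 and 4 and the list counts under the alternatives were chosen after seeing the data.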

Additional observations from a re-analysis of the deposited data

Results flagged for a closer look

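Within groups of 4 libraries, 6 of 204 sets of values had 1 library far from the other 3, by the size of the gap relative to the group's range. Chance gives about 1 in 20. NDUFA13 stood at 170 TPM in HUWE1 set 1 replicate 2, against 155 to 157 TPM in the other 3. COX4I1 stood at 193 TPM in HUWE1 set 2 replicate 2, against 177 to 179, and CYC1 at 214 TPM in HUWE1 set 3 replicate 3, against 220.3 to 220.6. NDUFB2-AS1 stood at 0.897 TPM in HUWE1 set 1 replicate 4, against 1.58 to 1.70. NDUFC2-KCTD14 stood at 16.8 TPM in HUWE1 set 2 replicate 1, with the lowest of the others at 11.2, and at 11.7 TPM in HUWE1 set 3 replicate 1, against 14.1 to 14.4.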

How the results depend on the processing

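In set 1, 30 members were called, and 21 to 34 under the other filters, scalings and variance settings. The split of 24 higher and 6 lower became 29 and 4 with median-of-ratios scaling and 31 and 3 with quantile normalization. A log2 fold change of 0.2 or more left 2. Leaving out 1 library gave 17 to 31, with 17 without HUWE1 replicate 4 and 20 without HUWE1 replicate 3, against 30 with all. Of 23 called members named by the rule, 12 kept their call in all 17 alternatives.

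In set 3, 8 members were called. There were 1 without a filter, 16 at a mean TPM of 5 or more, 2 under median-of-ratios and 2 under quantile scaling, 3 without mitochondrially encoded genes, 4 without the variance trend, 0 with only the 2 groups compared, 3 past a log2 fold change of 0.2, and 19 without non-targeting replicates 1 and 4. Leaving out 1 library gave 0 to 41: 41 without non-targeting replicate 4, 2, 1 and 0 without replicates 1, 2 and 3, 2, 3, 0 and 0 without HUWE1 set 3 replicates 1 to 4, and 3 without HUWE1 set 2 replicate 3. Fewer genes or libraries enter some of these fits, and otherwise the cause was not tested. None of the 8 kept its call in all 23 alternatives.

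In set 2 and in set 3 against set 2, 0 members were called under every alternative run. Over the named members, 3331 alternative values held 143 lost calls, 21 gained calls and 0 called values that changed sign. The HUWE1 fold change ran from -0.89 to -0.84, -0.81 to -0.77 and -0.97 to -0.91 in sets 1, 2 and 3.

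Replicate numbers are shared between groups, but same-numbered libraries did not deviate together in every pair, which the pairing would need: the correlations of their deviations were 0.03, 0.01, 0.0002 and 0.05 in set 1 and -0.43, -0.02, 0.04 and -0.48 between the controls and set 2, and 0.20, 0.01, -0.03 and 0.41 between the controls and set 3. Not every library correlated best with its own number, although control replicate 4 did in set 3. With the replicate block the counts were 32, 0, 7 and 0 in set 1, set 2, set 3 and set 3 against set 2. TPM gives no depth, so no limit of detection was set.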
